A study of Mus musculus with 2207 samples.

Results

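Microglia nuclei of the mouse cortex were taken as all nuclei whose sample label gives the cell type Microglia. Of 2207 nuclei in all, these were 68 from the 96-well format and 78 from the 384-well format, and they were described beside the 1664 neuron and 397 oligodendrocyte nuclei of the same plates. The study asked how loss of 1 copy of *Ehmt1*, the gene of the histone H3K9 methyltransferase GLP, changes the cortex, and single nuclei were read by RamDA-seq, a full-length total RNA method with random priming. All mice were C57BL/6, were 14 weeks old and had been given 2 tamoxifen doses of 100 mg/kg from an age of 3 weeks. The 96-well plates held WT (*Ehmt1*+/+) and Ehmt1Δ/+ nuclei. Per the labels, in the 384-well plates all 4 groups carried the *Ehmt1* iTg transgene, which makes FLAG-tagged GLP once Cre is active. There, WT and Ehmt1Δ/+ lacked CamKII-CreER, and iTg and Ehmt1Δ/+; iTg carried it. The study's text instead describes these 4 groups as CamKII-CreER mice that differ in iTg, and the names from the labels are used here, with the pools grouped alike under either description. CamKII-CreER drives Cre in postnatal forebrain neurons, not in microglia. Nuclei were sorted by DAPI with no sort for microglia, and the authors removed poor nuclei and those with weak cell type features. Each of the 6 groups is 1 pool of nuclei from 3 mice, the labels do not say which mouse a nucleus is from, and the pool was therefore the unit of every comparison. By pool there were 36 (WT, 96-well), 32 (Ehmt1Δ/+, 96-well), 16 (WT, 384-well), 19 (Ehmt1Δ/+, 384-well), 20 (iTg) and 23 (Ehmt1Δ/+; iTg) microglia nuclei.

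Microglia are the resident macrophages of the brain. They depend on signalling through the receptor *Csf1r*, survey tissue with purinergic and chemokine receptors such as *P2ry12* and *Cx3cr1*, tag synapses and debris with complement C1q, and clear them through receptors such as *Trem2* and *Mertk*. Their identity is set by transcription factors that include PU.1 (gene *Spi1*), *Irf8*, *Runx1* and *Sall1*, and PU.1 binds purine-rich DNA around a GGAA core. Macrophages at the borders of the brain share many of these genes but also use *Mrc1*, *Cd163*, *Lyve1* and *Pf4*.

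Of 28 genes named below as markers, for their high level in microglia or as genes the study follows, 24 had a promoter in the RefSeq table of GRCm38.p6, and the letters AGGAAGT, a form of the PU.1 motif, were found on either strand in the 250 bases before the start of 3 of them. These 3 promoters are shown because they belong to microglia genes that hold the motif, 5′ to 3′ on the gene's own strand, with the motif or its reverse complement in capitals. They are those of *P2ry12* (chr3:59262986-59263235, minus strand, motif 52 bases before the start), *Fcrls* (chr3:87263525-87263774, minus strand, 75 bases before the start) and *C1qc* (chr4:136892915-136893164, minus strand, further upstream). The starts meant are those of RefSeq. By the gene coordinates used elsewhere in this text, *Fcrls* reaches 87263738 and *C1qc* reaches 136893065. Part of these stretches then lies inside the gene, and so does the marked motif of *Fcrls*.
P2ry12: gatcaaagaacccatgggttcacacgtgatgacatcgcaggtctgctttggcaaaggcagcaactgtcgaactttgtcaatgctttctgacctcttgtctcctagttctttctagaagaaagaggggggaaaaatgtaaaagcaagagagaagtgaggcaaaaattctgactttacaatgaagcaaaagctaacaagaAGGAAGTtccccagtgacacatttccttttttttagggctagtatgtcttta
Fcrls: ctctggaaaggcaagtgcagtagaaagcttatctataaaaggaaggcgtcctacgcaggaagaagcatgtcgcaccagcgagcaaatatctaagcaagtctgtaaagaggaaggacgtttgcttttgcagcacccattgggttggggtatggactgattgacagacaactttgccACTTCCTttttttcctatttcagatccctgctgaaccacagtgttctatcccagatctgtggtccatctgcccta
C1qc: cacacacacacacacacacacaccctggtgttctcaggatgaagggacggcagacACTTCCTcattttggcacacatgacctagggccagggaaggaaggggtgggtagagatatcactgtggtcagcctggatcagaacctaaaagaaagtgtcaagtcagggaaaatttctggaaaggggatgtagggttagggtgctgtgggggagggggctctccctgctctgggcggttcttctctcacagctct
The same letters were in the 250 bases before the start of 8.80% of all 27025 promoters, of 8.59% of those of the genes considered in the 96-well plates, of 16.5% of those of genes called higher in 96-well microglia (a call is defined below) and of 6.55% of those of genes called lower. The longer form GAGGAAGT, which contains AGGAAGT and which *C1qc* holds, was in 2.79%, 2.81%, 6.46% and 1.68% of the same sets, and in 8.29% of promoters of genes called higher in both plate formats. In the same order of sets, the shorter forms GGAAGT and GGAAGTG, which overlap these, were in 22.2%, 25%, 30.8% and 17% and in 9.77%, 12%, 14.6% and 8.4%. Of motifs with no GGAAGT in them, the AP-1 form TGANTCA was in 7.82%, 5.68%, 8.42% and 5.38%, the E-box CACGTG in 6.86%, 9%, 8.81% and 6.39% and TATAAA in 14.3%, 8.62%, 10.9% and 9.41%. A motif of 10 letters, which holds the GGAA core on its reverse strand but no GGAAGT, was in 0.474%, 0.344%, 0.392% and 0.336%. It was in 0.332% of promoters of genes called higher in both plate formats. For this rare form the share in genes called higher (4 of 1021 promoters) lay between those of the genes considered and of all promoters. With so few promoters this form cannot show whether an excess is present. Motifs without GGAAGT also had higher shares in genes called higher than in those considered, for TGANTCA (8.42% and 5.68%) and TATAAA (10.9% and 8.62%). For CACGTG (8.81% and 9%) this was not so. The 8 motifs were searched on both strands with the calls known, and these shares are descriptions with no test.

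The labels were first set against marker genes. Of the 4 microglia markers *Ctss*, *Csf1r*, *C1qa* and *P2ry12*, 3 were above 0 in 15 nuclei, 2 in 2 nuclei, 1 in 2 nuclei, and all 4 in every other nucleus. Of 32 genes of homeostatic microglia, a nucleus had a median of 30 above 0 (range 11 to 32). In the 384-well plates the microglia nuclei were far shallower. The recovered read total of a microglia nucleus had a median of 493359 and 510639 in the 96-well pools and of 39940 to 51469 in the 384-well pools, and the lowest, in 384-well WT, was 11268. Neurons had medians of 323273 to 392718 reads in every pool. Oligodendrocytes had medians of 441701 and 477028 reads in the 96-well pools and of 49634.7 to 54876.5 in the 384-well pools.

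In 5 nuclei the mean over another cell type's genes was above the mean over the homeostatic genes, and the plot of both list means sets them apart. In 4 of them, 1 from 96-well WT, 2 from 96-well Ehmt1Δ/+ and 1 from 384-well Ehmt1Δ/+, 10 to 12 of 13 border macrophage genes were above 0, with a mean of 363 to 483 RPKM (the list holds *Stab1*, which every pool of microglia expressed). The nuclei outside these 5 had 1 to 4 of the 13 and a mean of at most 102.9 RPKM. In these 4 nuclei the mannose receptor gene *Mrc1* was at 433 to 1076 RPKM and the haemoglobin scavenger receptor gene *Cd163* at 154.7 to 738 RPKM, *Csf1r* was at 515 to 901 RPKM, and *P2ry12* was at 0 to 63.4 RPKM. The fifth nucleus, from 96-well WT, had *Csf1r*, *C1qa* and *P2ry12* at 0 and a mean of 328 RPKM over the lymphocyte genes. Its cytotoxic granule genes *Gzma* and *Nkg7* were at 3069 and 2288 RPKM, and its natural killer receptor gene Ncr1 was at 870 RPKM. One further nucleus, from 384-well Ehmt1Δ/+, had 17 of 20 cell cycle genes above 0 (mean 42.6 RPKM, next highest nucleus 6.05 RPKM), with *Mki67* at 115.6 RPKM and *Top2a* at 63.2 RPKM. These nuclei were picked by their values and no test was made of them. Counts below include all nuclei, and values without the 5 are given where they change a result.

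**Figure D1:**
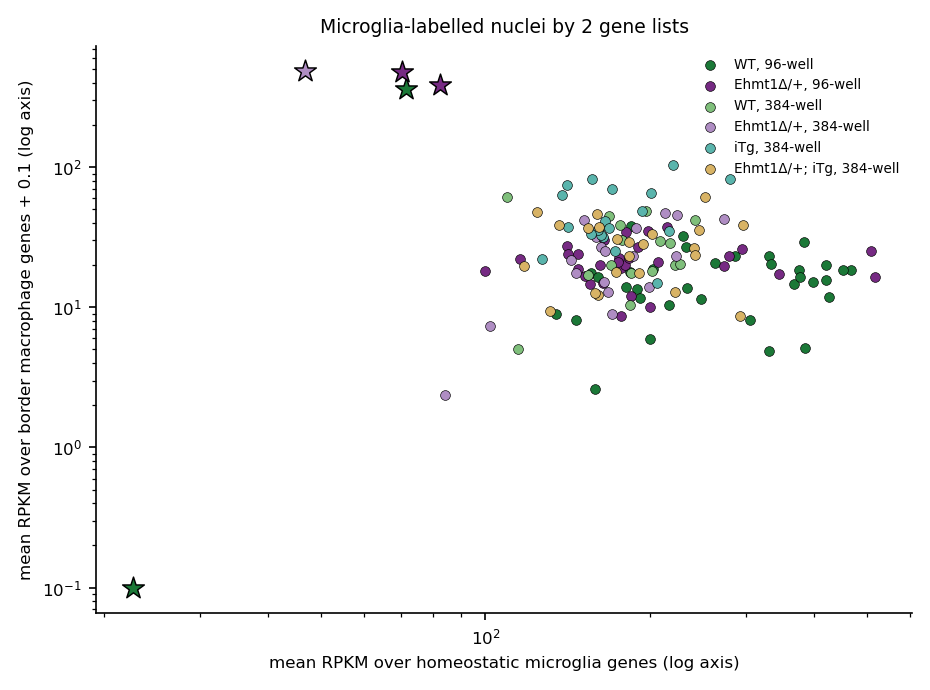
Each point is 1 nucleus labelled Microglia. The horizontal log axis is its mean RPKM over 32 homeostatic microglia genes and the vertical log axis its mean RPKM over 13 border macrophage genes plus 0.1. Colours give the pool and stars mark the 5 nuclei in which another cell type's list exceeded the homeostatic list, of which 4 sit between 363 and 483 RPKM on the vertical axis and 1 sits at the bottom left, while the others have at most 102.9 RPKM.

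Genes were described by the mean RPKM over the microglia of a pool. A gene was considered in a plate format if some cell type had it above 0 in 10% or more of its nuclei in every pool. It was called higher when its log2 ratio (after adding 0.1 RPKM) was at least 2 against both neurons and oligodendrocytes in every pool of the format and it was above 0 in at least 10% of the microglia of each. It was called lower when that ratio was -2 or less. The authors set cell types from clusters of these same nuclei and known markers, so microglia against the other types is a description here, with no test. In the 96-well plates 1917 genes were higher (7.04% of 27244 considered) and 1591 lower (5.84%). In the 384-well plates 981 were higher (4.29% of 22893) and 1141 lower (4.98%). There the microglia and oligodendrocytes were shallow while the neurons were not, and the part of this depth difference in the calls was not tested. Both formats shared 937 higher genes (4.11% of the 22801 considered in both), which are 48.9% of the 96-well and 95.5% of the 384-well calls, and 740 lower genes (3.25%), which are 46.5% and 64.9%. No gene was called in opposite directions. Of the 980 genes called higher in the 96-well plates alone, 618 did not reach that detection in the 384-well plates and were not considered there. Protein-coding genes made up 1181 of the 1917.

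Each of the 4 markers lay far above both other cell types. *Csf1r*, the receptor for the survival factors CSF1 and IL-34, had a mean of 960 and 801 RPKM in the 96-well WT and Ehmt1Δ/+ pools, and of 823, 864, 872 and 957 RPKM in the 384-well WT, Ehmt1Δ/+, iTg and Ehmt1Δ/+; iTg pools, an order kept for the values that follow. The levels of *Csf1r* overlapped between formats, and neurons and oligodendrocytes had at most 2.08 and 1.58 RPKM. *Ctss* (chromosome 3 of mm10, 95526786 to 95556403), a lysosomal cysteine protease, was at 505 and 403 RPKM and at 148.1, 130.7, 139.5 and 114.9 RPKM. *C1qa* (chromosome 4, 136895917 to 136898803), a chain of complement C1q, was at 236.5 and 204.1 RPKM and at 138.7, 97.3, 207.6 and 187.4 RPKM. *P2ry12* (chromosome 3, 59216272 to 59262871), the ADP receptor that steers microglial processes, was at 381 and 256.3 RPKM and at 119.8, 94.2, 101.2 and 134.7 RPKM. Both 96-well pools were above all 4 384-well pools for *Ctss* and *P2ry12*, while for *C1qa* iTg lay above 96-well Ehmt1Δ/+. *P2ry12* had the smallest of these ratios to another cell type, with a log2 ratio of 6.73 or more in every pool, and neurons read up to 2.33 RPKM. The gene lies inside *Med12l* on the opposite strand, *Med12l* was at 15.7 to 18.5 RPKM in neurons, and counting with the default parameters of featureCounts ignores strand, so reads of the 2 genes cannot be told apart.

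The first 10 genes of the 96-well list had at most 1.33 RPKM in any pool of the other cell types. *Cd33*, a sialic acid-binding inhibitory receptor, came first, with 243.6 and 240.5 RPKM in the 96-well pools, 220.4, 152.9, 156.4 and 208.2 RPKM in the 384-well pools, and at most 0.139 RPKM in any pool of neurons or oligodendrocytes. *Csf3r*, the G-CSF receptor, was at 385 and 451 RPKM and at 800, 757, 603 and 686 RPKM, higher in every 384-well pool than in either 96-well pool. *Fcrls*, an Fc receptor-like scavenger receptor (chromosome 3, 87250758 to 87263738 on the minus strand), was at 408 and 279.9 RPKM and at 163.6, 212.2, 225.1 and 213.6 RPKM, the opposite order. Its smallest log2 ratio to another cell type was 11.09 (96-well) and 9.74 (384-well).
The next genes kept this separation. *Siglech*, another sialic acid-binding lectin, was at 279.6 to 410 RPKM over the 6 pools, *Stab1*, a scavenger receptor, at 266.8 to 624 RPKM, and *Cx3cr1*, the receptor for neuronal fractalkine, at 244.1 to 363 RPKM. *Adap2* and *Fgd2*, which regulate Arf and Cdc42 GTPases, were at 313 to 802 and 204.4 to 653 RPKM, and *Arhgap45*, a GTPase-activating protein, at 219.9 to 875 RPKM. *Adap2os* overlaps *Adap2* on the other strand (125.2 to 318 RPKM) and cannot be told apart from it. *Vsir*, an inhibitory checkpoint receptor, was at 300.1 to 398 RPKM, *Mertk*, a phagocytic receptor kinase, at 191.3 to 326 RPKM, and *Itgam*, the integrin CD11b, at 70.3 to 134.9 RPKM. Protein-coding genes overlap *Cx3cr1* (*Wdr48*, *Gorasp1*, *Ttc21a*, *Csrnp1* and *Xirp1*), *Vsir* (*Cdh23*) and *Itgam* (*Gm49368*), and their reads were not told apart. *Tmem119*, a microglial surface protein of unsettled function, and *Laptm5*, a lysosomal membrane protein, entered among the first 10 in the 384-well plates, with 225.5 to 352 and 114.9 to 179.1 RPKM over the 6 pools. *Vis1* was the exception among the leading genes. It was at 65.7 and 72.9 RPKM in the 96-well pools but at 0, 60.5, 9.59 and 36.5 RPKM in the 384-well pools, and was not called there.

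**Figure D2:**
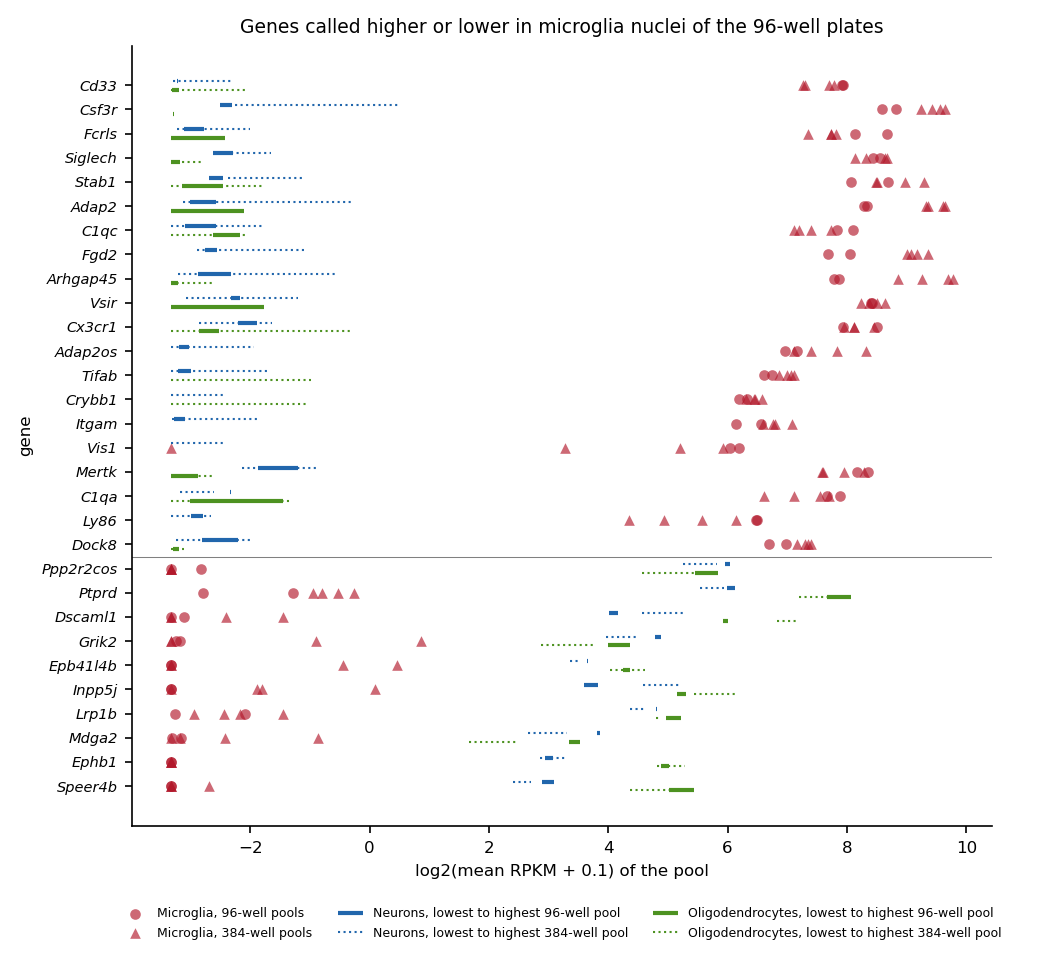
The horizontal axis is log2 of the mean RPKM of a pool plus 0.1, for the 20 leading genes called higher in 96-well microglia (above the line) and the 10 called lower (below it). Red circles and triangles are microglia of 96-well and 384-well pools, and bars span the lowest to the highest pool of neurons and oligodendrocytes. Microglia lie right of both cell types for the higher genes, such as Cd33 at 152.9 to 243.6 RPKM, except for Vis1, which was at 0 in 1 384-well pool, and left of them for the lower genes.

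Gene lists describe which known sets of genes were high in these nuclei. The labels rest on expression and known markers, so high shares in lists of microglia genes are in part set by them. Lists were counted over all their measured members, of which some were too rarely detected to be considered, and of all 52636 genes measured, 3.64% (96-well) and 1.86% (384-well) were called higher. Of 32 homeostatic genes, 30 (96-well) and 29 (384-well) were higher. All 32 were considered in both formats, and their median smallest log2 ratio was 7.30 and 6.36, beside -0.80 and -3.13 over all genes considered. The 2 not called in either were *Gpr155*, at 23.8 and 13.7 RPKM in 96-well microglia and at up to 22.7 RPKM in oligodendrocytes, and *Rasgrp3*, at 54.4 and 68.6 RPKM with up to 27.7 RPKM in oligodendrocytes.

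Of 30 transcription factor genes, 20 (96-well) and 17 (384-well) were higher. *Runx1* was at 43.1 and 61.02 RPKM and at 27.1, 23.9, 25.1 and 47.2 RPKM, and at no more than 0.0265 RPKM elsewhere. *Irf8*, which shapes the myeloid lineage, was at 52.95 to 83.3 RPKM over the 6 pools, *Ikzf1*, a lymphoid and myeloid zinc-finger factor, at 35.1 to 56.2 RPKM, and *Fli1*, an ETS factor, at 27.5 to 43.2 RPKM. *Spi1* itself was at 16.8 and 18.3 RPKM in the 96-well pools and at 27.5 to 46.8 RPKM in the 384-well pools, and was called higher in both formats. *Sall1*, which is also made by oligodendrocytes here (up to 29.1 RPKM), was at 122.6 and 162.6 RPKM and at 326, 316, 318 and 235.3 RPKM. *Mef2c*, at 48.4 and 49.2 RPKM in 96-well microglia, was not called, as neurons held up to 34.7 RPKM.

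Receptors through which microglia sense and clear material were called higher in part. Of 22 complement genes 10 (96-well) and 8 (384-well) were higher, led by the C1q chains. *C1qb* was at 456 and 359 RPKM and at 546, 518, 494 and 621 RPKM, *C1qc* was at 138.3 to 273.1 RPKM over the 6 pools, and *C3* was at 0 in all of them. Of 17 genes of purinergic and adenosine signalling 9 and 8 were higher. Among them were the UDP receptor *P2ry6* (39.96 to 78.1 RPKM), the ectonucleotidase *Entpd1* (32.7 to 140.7 RPKM) and the adenosine receptor *Adora3* (10.6 to 17.96 RPKM), while *Adora1* was lower in both formats.
Of 25 phagocytosis genes 12 and 11 were higher. *Trem2*, the lipid-sensing receptor, was at 108.4 and 94.2 RPKM and at 133.3, 159.1, 97.4 and 135.1 RPKM, and its adaptor *Tyrobp* was at 173.7 and 111.3 RPKM and at 272.8, 115.3, 118.7 and 100.1 RPKM. *Tyro3*, the relative of *Mertk* that neurons use, was lower in both formats. Of 14 Fc receptor and siglec genes 11 and 9 were higher, including *Fcgr1*, the high-affinity IgG receptor, at 46.2 to 64.2 RPKM.
Of 30 Toll-like and pattern receptor genes 23 and 19 were higher. *Tlr7*, the endosomal sensor of single-stranded RNA, was at 124.9 and 97.6 RPKM in the 96-well pools and at 14.6, 16.6, 25.2 and 45.8 RPKM in the 384-well pools, and the lipopolysaccharide co-receptor *Cd14* was at 13.7 to 44.6 RPKM over all 6. Of 16 measured CSF1 and TGFβ signalling genes 8 and 7 were higher, with *Tgfbr1* at 388 and 312 RPKM and at 109.04, 121.6, 142.8 and 190.96 RPKM. *Il34*, a ligand of *Csf1r* made by neurons, was lower in the 384-well plates.

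Of 47 genes of intracellular immune signalling 37 were higher, the same 37 in both formats. The haematopoietic guanine nucleotide exchange factors *Vav1*, *Dock2* and *Dock8* were at 80.5 to 120.8, 77.1 to 110.9 and 103.8 to 168.6 RPKM over the 6 pools, with at most 0.223 RPKM of any of them in the other cell types, and the PI3K adaptor *Pik3ap1* was at 79.9 to 141.96 RPKM. Of 28 lysosome genes 16 and 11 were higher. The protease *Ctsd* was at 705 and 386 RPKM and at 264.8, 321, 320 and 413 RPKM, above oligodendrocytes at up to 27.3 RPKM. Of 16 channel genes only 4 and 3 were higher, among them the potassium channel *Kcnk6* at 20.6 to 66.2 RPKM and the chloride channel *Clic1* at 20.8 to 63.04 RPKM.

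**Figure D3:**
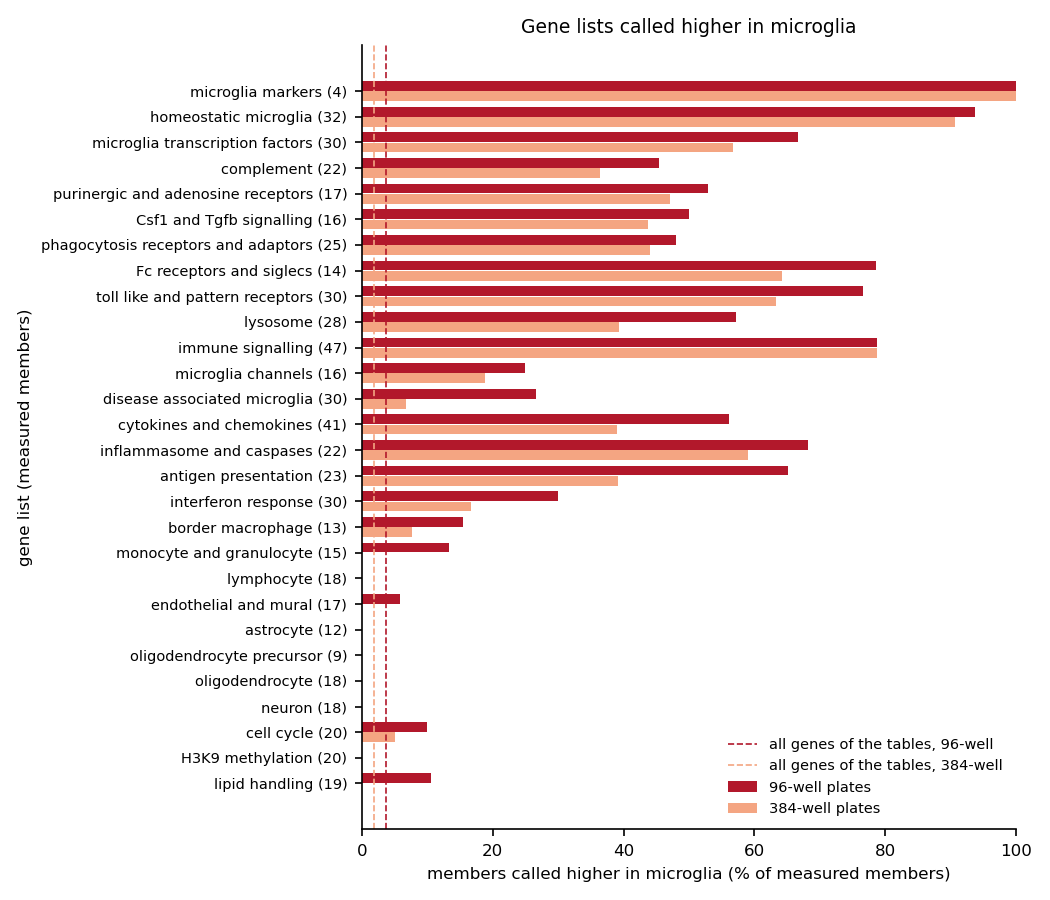
Share of the measured members of each gene list (number in brackets) that was called higher in microglia, as a percentage, in 96-well plates (dark bars) and 384-well plates (light bars). Dashed lines give the share of all genes of the tables (3.64% and 1.86%). Homeostatic genes reach 30 and 29 of 32, while the lists of oligodendrocytes, neurons, astrocytes, lymphocytes and H3K9 methylation have none.

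In the 96-well plates, the share called higher ran from 26.7% of the disease-associated genes to 68.2% of the inflammasome genes over 5 lists of reactive and immune states. Of 30 genes of disease-associated microglia 8 (96-well) and 2 (384-well) were higher, and the 2 are *Ctsd* and *Lilrb4a*, an inhibitory immunoglobulin-like receptor at 18.6 and 29.9 RPKM and at 3.99 to 6.96 RPKM. Of the defining genes of that state, *Lpl*, a lipoprotein lipase, and *Spp1*, osteopontin, were at no more than 0.179 and 1.48 RPKM, and both were at 0 in the 4 384-well pools. *Apoe* was at 52.9, 144.4, 0.941, 99.7, 1.27 and 3.35 RPKM in the 6 pools, and without the 5 nuclei it was at 11.5, 15.04, 0.941, 33.4, 1.27 and 3.35 RPKM, beside 83.8, 39.6, 42.7, 22.1, 32.3 and 28.7 RPKM in oligodendrocytes. Without the 5 nuclei, oligodendrocytes were thus above microglia in every pool but 384-well Ehmt1Δ/+. With them, microglia were also above oligodendrocytes in 96-well Ehmt1Δ/+. Of 30 interferon response genes 9 and 5 were higher, and the 5 include both subunits of the interferon gamma receptor, *Ifngr1* (48.9 to 133.8 RPKM) and *Ifngr2* (32.8 to 62.6 RPKM).
Of 41 cytokine and chemokine genes 23 and 16 were higher. *Il1a* was at 33.9 and 44.1 RPKM and at 18.5, 29.1, 18.1 and 34.6 RPKM, and *Il10ra*, the receptor for the anti-inflammatory cytokine IL-10, was at 152.9 to 273.4 RPKM. *Il1b*, in contrast, was at 0 to 4.001 RPKM, above 0 in 2, 0, 0, 2, 1 and 1 nuclei of the 6 pools, and was not called. *Il6* and *Tnf* were above 0 in every microglia nucleus, at 172.4 to 689 and 64.7 to 154.6 RPKM, yet oligodendrocytes held up to 629 and 142.1 RPKM of them, so neither was called. Even the marker *Ctss* was above 0 in only 78.9% to 91.3% of the microglia of a 384-well pool. Whether the reads counted for *Il6* and *Tnf* came from these genes was not tested, and their values are not read as expression.
Of 22 inflammasome genes 15 and 13 were higher. The sensor *Nlrp3* was at 36.4 and 34.6 RPKM and at 43.6, 32.2, 34.03 and 62.4 RPKM, at most 0.109 RPKM elsewhere, *Nlrp1b* at 38.1 to 93.7 RPKM, and the pore-forming protein gene *Gsdmd* at 82.5 to 158.6 RPKM. *Casp1*, the protease that matures interleukin-1β, was lower than these, at 7.77 and 16.4 RPKM and at 11.01, 12.1, 1.79 and 4.70 RPKM. Of 23 antigen presentation genes 15 and 9 were higher, including the class I chain *B2m* at 302.5 and 152.8 RPKM and at 42.8, 36.4, 29.4 and 74.9 RPKM, while the class II gene *Cd74* was at 0 in all 4 384-well pools and at 1.43 and 2.84 RPKM in the 96-well pools. None of 20 genes of H3K9 methylation was called in either direction. *Ehmt1* was at 15.7 to 26.4 RPKM and *Ehmt2*, the gene of the partner enzyme G9a, at 24.7 to 101.6 RPKM in microglia, values that overlapped those of neurons (*Ehmt1* up to 33.9, *Ehmt2* up to 71.4 RPKM).

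The genes named for being lower include adhesion and receptor genes that neurons and oligodendrocytes both use. Of the genes ranked down to the last one named, 92.9% were predicted genes, pseudogenes or small RNAs and were passed over. *Ppp2r2cos* came first of those named, at 0.0416 RPKM in 96-well Ehmt1Δ/+ and at 0 in the other 5 pools. *Ptprd*, a receptor phosphatase of synapse formation, was next, with 0.310 and 0.0444 RPKM in the 96-well pools, against 63.3 to 69.9 RPKM in neurons and 203.3 to 267.1 RPKM in oligodendrocytes. *Dscaml1*, an adhesion molecule, was at 0.0154 and 0 RPKM and at 0, 0, 0.0878 and 0.265 RPKM, against 60.5 to 146.2 RPKM in oligodendrocytes. The kainate receptor gene *Grik2* was at no more than 1.71 RPKM in microglia, and *Ephb1*, an ephrin receptor, was at 0 in all 6 pools. *Lrp1b*, *Mdga2*, *Epb41l4b*, *Inpp5j* and *Speer4b* completed the first 10, each at no more than 1.28 RPKM in any microglia pool. *Ppp2r2cos* lies antisense to *Ppp2r2c* and *Speer4b* lies within *Dpp6*, with which reads cannot be told apart. The same holds for *Inpp5j*, which overlaps *Pla2g3*, and for *Ephb1*, which overlaps *9630041A04Rik*.

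Genes of other cell types were also read in microglia nuclei, and those of neurons differed between the 2 96-well pools. None of the 18 neuron genes and none of the 18 oligodendrocyte genes was called higher. Summed over the 18 neuron genes, the level was 146.8 RPKM in 96-well WT, 50.8 RPKM in 96-well Ehmt1Δ/+ and 37.7 to 71.2 RPKM in the 384-well pools, with 14 to 18 of the genes above 0. *Snap25*, the synaptic protein gene that marks neurons, was above 0 in 35 of 36 WT and 15 of 32 Ehmt1Δ/+ nuclei of the 96-well plates, with means of 51.7 and 9.85 RPKM, and was at 1.22 to 5.64 RPKM in the 384-well pools. Neurons held up to 131.1 RPKM, and oligodendrocytes of the 96-well WT and Ehmt1Δ/+ pools held 41.3 and 8.88 RPKM. The defining genes of oligodendrocytes were low throughout, with *Mbp*, the myelin basic protein gene, at 2.98 to 7.62 RPKM beside up to 955 RPKM in oligodendrocytes. Of the 12 astrocyte genes 4 to 11 were above 0 in a pool, with sums of 12.4 to 60.8 RPKM without the 5 nuclei. The part of this RNA in the levels above was not tested, and the allele comparison is given below also without the nuclei that held most of it.

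**Figure D4:**
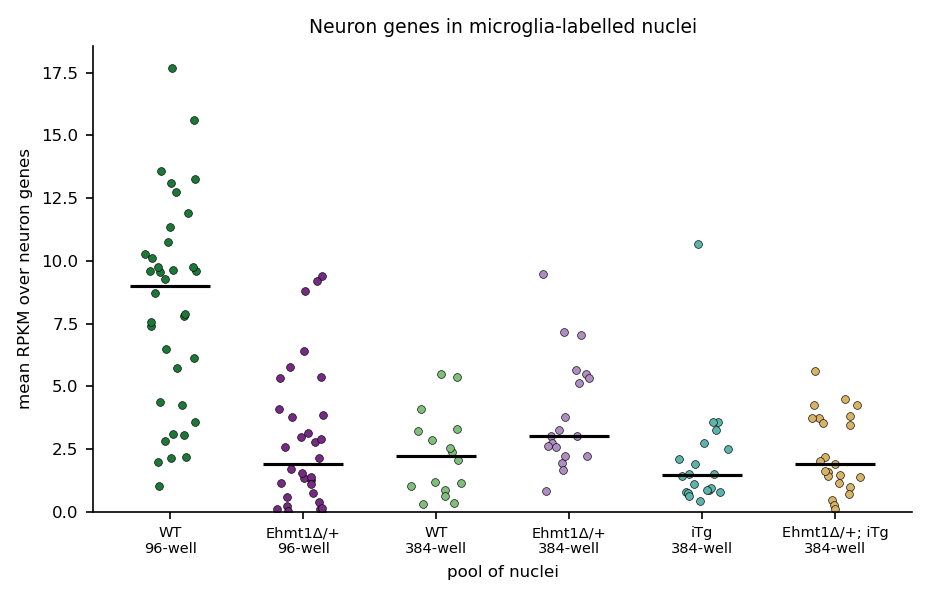
Each point is 1 microglia nucleus, and the vertical axis is its mean RPKM over 18 neuron genes, with a bar at the median of each pool. The median was 8.999 RPKM in 96-well WT, 1.92 RPKM in 96-well Ehmt1Δ/+ and between 1.45 and 3.03 RPKM in the 384-well pools.

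Levels were also set between the plate formats, which differ in depth, plates and transgenes at once and cannot be told apart from these. Of 8813 genes considered that were above 0 in at least 10% of the microglia of every pool, both 96-well pools were above all 4 384-well pools for 2389 (27.1%) and below them for 1529 (17.3%). Of 30 genes named above (the markers, the genes the study follows and those leading in either format), 7 were higher in the 96-well pools (*Ctss*, *P2ry12*, *Cd33*, *Fcrls*, *C1qc*, *Vis1* and *Ly86*), 8 were lower (*Csf3r*, *Adap2*, *Fgd2*, *Arhgap45*, *Tifab*, *Itgam*, *Dock8* and *Ehmt2*) and 15 overlapped. *Ly86*, a partner of Toll-like receptors, was at 89.03 and 89.5 RPKM and at 47.2, 30.6, 20.3 and 70.3 RPKM. *Tifab*, a regulator of innate immune signalling, was at 97.1 and 106.6 RPKM and at 115.8, 128.2, 138.95 and 133.2 RPKM. With 1 pool per condition, no test of format was made.

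The allele was then compared over the 3 pairs of pools that differ in it. Microglia labelled Ehmt1Δ/+ did not differ from those without the allele in any gene at an adjusted p of 0.05 by limma, with plate format and CamKII-CreER as terms (0 of 11553 tested, 0%, smallest adjusted p 0.844). At an unadjusted p under 0.05 there were 514 genes, 317 of them higher, and limma with a mean trend also called 0, with 603. Without the 25% of microglia nuclei of each pool with most neuron and oligodendrocyte RNA it called 0 of 10914 genes, with 464 at an unadjusted p under 0.05. In every pair 1843 genes (16%) were higher and 1332 (11.5%) lower with the allele. Simulated data of this design had 50 genes changed at each size, all in the same data. There, 0 of 50 genes were called at a log2 change of 1, 3 of 50 at 2, 32 of 50 at 3 and 42 of 50 at 4. Changes up to a log2 of 2 were thus mostly not detectable here. The adjusted p depends on how many genes change together, so the shares at 3 and 4 do not carry over to fewer changed genes.
*Ehmt1* itself was at 16.8, 15.7 and 23.8 RPKM without and 25.1, 20.8 and 26.4 RPKM with the allele, higher in 3 of 3 pairs (log2 0.38 ± 0.34 SE, adjusted p = 0.853 by limma). In the same pairs its log2 ratios were 0.73, 0.69 and 0.71 in neurons and 0.56, 0.58 and 0.44 in oligodendrocytes. The RPKM of *Ehmt1* is a value of the gene as a whole, not of the deleted part, and so is no check of the labels. The study reported less GLP protein in Ehmt1Δ/+ than in WT whole-brain lysate, a measure of protein and not of RNA. Why the RNA was higher here was not tested. *Casp1* was at 7.77, 11.01 and 1.79 RPKM without and at 16.4, 12.1 and 4.70 RPKM with the allele, with log2 ratios of 1.07, 0.13 and 1.34 (log2 0.85 ± 0.41 SE, adjusted p = 0.844 by limma). It was above 0 in 18 of 36, 7 of 16 and 2 of 20 nuclei without and in 27 of 32, 5 of 19 and 3 of 23 nuclei with the allele, so the share of nuclei with *Casp1* was higher with the allele in the 96-well pair, lower in the 384-well pair without CamKII-CreER (43.8% and 26.3%) and close in the pair with it (2 of 20 and 3 of 23). *Nlrp3* had ratios of -0.07, -0.43 and 0.87, and *Il1b* was too rarely detected to be tested.
Genes with the same sign in all pairs were ranked by the smallest of their 3 pair ratios, and where a pool was at 0 the fitted difference depends on the 0.1 RPKM added. *Kcnj9*, a potassium channel gene, was at 0.835, 1.38 and 0.623 RPKM without and 5.03, 10.1 and 8.13 RPKM with the allele, with no overlap (log2 2.92 ± 0.39 SE, adjusted p = 0.844 by limma). It was above 0 in 4, 1 and 1 nuclei of these pools without and in 11, 5 and 7 nuclei with the allele. Neurons of the same pools held *Kcnj9* at 26.96 to 44.3 RPKM, above 0 in 97.4% to 99.6% of them, and its log2 difference in microglia was 2.86 without the 25% of microglia nuclei with most neuron and oligodendrocyte RNA. *Mrpl15* (log2 3.08), *Usp18* (3.14), *Lyz2* (3.14) and *Nup210l* (3.18) followed, and *Prkcq* (-2.40), *Bahcc1* (-2.61), *Kcnd3* (-3.06), *Mrpl49* (-4.92) and *Lbh* (-3.003) lay at the other end, each with an adjusted p of 0.844 by limma. *Lyz2*, a lysozyme gene of macrophages, was at 22.9, 5.18 and 0.559 RPKM without and 104.6, 60.5 and 8.60 RPKM with the allele, and its log2 difference was 2.51 without the 5 nuclei.
*Mrc1*, named after its values were seen, had a larger fitted difference than the 5 genes ranked highest with the allele but a smaller lowest pair ratio (2.06). *Mrc1* was at 17.5, 0.158 and 0.0909 RPKM without and 73.6, 25.2 and 4.96 RPKM with the allele. It was at 0.886, 0.158 and 0.0909 RPKM and at 14.6, 2.55 and 4.96 RPKM without the 5 nuclei, 3 of the 4 border macrophage nuclei being from pools with the allele (log2 4.47 ± 0.95 SE with them, 3.997 without them, adjusted p = 0.844 and 0.856 by limma). *Usp18*, which limits interferon signalling, was at 1.12, 0 and 2.19 RPKM without and 7.47, 2.16 and 11.2 RPKM with the allele, above 0 in 2, 0 and 3 against 12, 4 and 7 nuclei. Of the 30 interferon response genes 13 could be tested. Of these, 6 (among them *Irf9*, *Mx2*, *Usp18* and *Xaf1*) were higher in all 3 pairs and 0 were lower. Over all 11553 genes the shares were 16% and 11.5%. *Usp18* was ranked above by these same values. The median log2 difference of the 13 was 0.77 beside 0.07 over all genes. None of the 13 passed the test, and nothing is read from the list beyond these counts. Of the 32 homeostatic genes, 1 (*Lpcat2*) was higher and 8 (among them *Ctss*, *Tyrobp*, *Itgam* and *Sparc*) were lower in all 3 pairs. Their median was -0.16, and none passed the test. Other lists also leaned to 1 side, such as transcription factor genes (8 higher and 1 lower of 28 tested) and lipid handling genes (2 higher and 5 lower of 13).

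**Figure D5:**
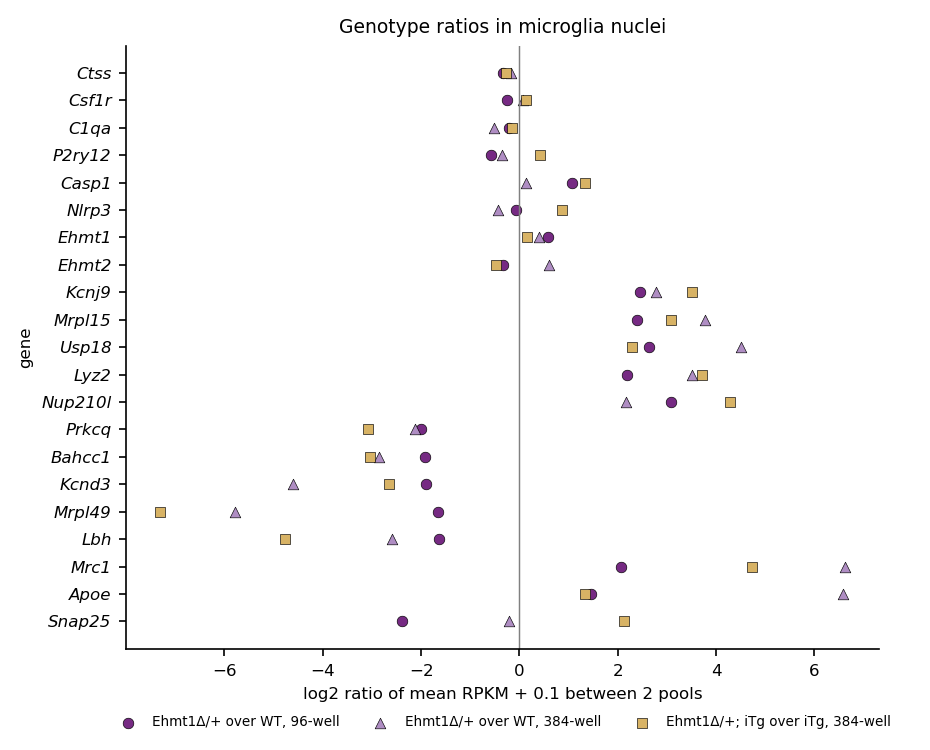
Log2 ratio of mean RPKM + 0.1 in microglia between the pool with and the pool without the Ehmt1Δ/+ allele, for 3 pairs of pools. Circles are the 96-well pair, triangles the 384-well pair without and squares the pair with CamKII-CreER. Csf1r lies at -0.26, 0.07 and 0.13, Kcnj9 at 2.46, 2.79 and 3.51, and none of these genes passed limma's adjusted p of 0.05.

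Microglia made up 9.94% of the nuclei in 96-well WT (exact 95% Clopper-Pearson interval 7.06 to 13.5%) and 8.70% in 96-well Ehmt1Δ/+ (6.02 to 12.1%). In the 384-well plates the shares were 4.32% (2.49 to 6.93%) in WT, 5.12% (3.11 to 7.88%) in Ehmt1Δ/+, 5.46% (3.37 to 8.31%) in iTg and 6.22% (3.98 to 9.18%) in Ehmt1Δ/+; iTg. With and without the allele the mean share was 6.68% ± 1.83 and 6.58% ± 2.97 (SD, n = 3 pools each), a difference of 0.0999 points, with p = 1 in a two-sided exact permutation test whose smallest possible p is 0.1. The intervals cover counting error only, and nuclei that the authors removed are not in these shares.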

How the data were processed

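Nuclei were sorted singly by DAPI and read by RamDA-seq. The authors aligned reads to mm10 with HISAT2 2.0.4, counted them per gene with featureCounts of Subread 1.5.0 and deposited RPKM for each nucleus (reads relative to the length of the gene and to all reads of that nucleus), with no counts. The study describes counting with default parameters, which ignore strand, and 19 of 37 named genes with coordinates overlap another gene, 9 of them a protein-coding one. The tables held 52636 genes and 2207 nuclei, and no column was left unused (0). Read totals per nucleus were recovered from the spacing of low RPKM values, in steps of hundredths of a read for a median of 99.9% of values. Given these fractions, how reads shared between genes or mapped to several places were counted is not known here. Doublets were not called here.

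RPKM was averaged over the nuclei of each pool and cell type with 0.1 RPKM added before log2. Microglia against other cell types has no test, since the labels come from the same nuclei. The allele was tested with limma 3.58.1 (R 4.3.3) on the 6 pool means, with Benjamini-Hochberg adjustment at 0.05, over genes above 0 in at least 10% of the microglia of every pool with or of every pool without it. Each pool holds 3 mice, so p-values measure the spread between pools. Simulated data were used to test the fit, and 4 of 11353 unchanged genes were called. Shares of nuclei were compared by an exact permutation test. Tables were made with Python 3.11.15 and pandas 2.3.3, coordinates follow mm10 and promoters RefSeq GRCm38.p6.

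The genes named were the markers, *Casp1*, *Il1b*, *Nlrp3*, *Ehmt1* and *Ehmt2*, the first 20 higher (96-well), 10 higher (384-well) and 10 lower (96-well) genes by their smallest log2 ratio, up to 4 called members of each list, and the 5 genes at each end of the allele comparison by the smallest ratio over 3 pairs. Predicted genes, pseudogenes and small RNAs were passed over (18 and 1 in the higher and 4 and 2 in the allele rankings, and 92.9% of those ranked down to the last one named in the lower ranking). Other genes were named after their values were seen. Values of some listed genes are not reported here. Members, lists (28, with 550 of 551 genes matched) and tests were chosen with earlier results of these data known. Alternatives were other pseudocounts, detection limits, thresholds and model terms, pools left out in turn, and, added after the data were seen, the 5 nuclei left out.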

Additional observations from a re-analysis of the deposited data

Results flagged for a closer look

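The log2 ratio of *Csf1r* between microglia with and without the Ehmt1Δ/+ allele was -0.26 in the 96-well pair, and 0.07 and 0.13 in both 384-well pairs, so the plate formats moved in opposite directions. The interaction of allele and format in limma gave an adjusted p of 0.9999, with 0 genes called and 1.65% of the genes tested at an unadjusted p under 0.05, and no pair of pools has replicates. The microglia share of nuclei also differed in sign. With the allele it was lower by 1.25 points (-1.25) in the 96-well pair, and higher by 0.797 and 0.752 points in the 384-well pairs, and this difference was not tested.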

How the results depend on the processing

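No paired analysis was possible because the labels number no replicates and each condition has 1 pool, beyond the limma fit itself, whose terms for plate format and CamKII-CreER set the allele within 3 pairs of pools. At pseudocount 1 the genes called lower numbered 666 (96-well) and 433 (384-well). At a log2 threshold of 1, higher and lower genes were 3375 and 2653 (96-well) and 1537 and 1795 (384-well), and at 3 they were 1249 and 1021 (96-well), with 715 lower in the 384-well plates. Leaving out each pool gave 2270 to 2505 higher and 2382 to 2748 lower genes (96-well; the highest of both without WT), and 1040 to 1110 and 1405 to 1537 (384-well), with fewer pools to pass. Without the 5 nuclei, chosen after the data were seen, the counts were 1924 and 1641 (96-well) and 971 and 1149 (384-well). Every limma alternative called 0 genes for the allele, with smallest adjusted p from 0.525 to 0.936.

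Some allele differences near 0 changed sign. The share difference, 0.0999 points, was -0.909 without 96-well Ehmt1Δ/+, -1.03 without 384-well WT and -0.457 without iTg (range -1.03 to 1.78 points). Per oligodendrocyte and microglia it was 4.01 points (p = 0.5, exact permutation test). Without either 96-well pool the log2 difference was 0.10 for *Csf1r*, 0.032 for *P2ry12*, 0.06 for *Ehmt2* and 0.96 for *Snap25*, which was 1.28 with the highest nucleus left out. Without CamKII-CreER pools, or without either of them, it was -0.25 for *Nlrp3* and 0.13 for *Ehmt2*. Over the pools left out in turn the ranges were -0.10 to 0.10 (*Csf1r*), -0.46 to 0.032 (*P2ry12*), -0.25 to 0.40 (*Nlrp3*), -0.41 to 0.13 (*Ehmt2*) and -1.29 to 0.96 (*Snap25*). The cause was not tested. Of the remaining comparisons of single genes, 564 were counted as unchanged and 75 moved in size. For the allele, unchanged meant only the same sign and the same call, as size was not compared there. Depth limits the microglia of the 384-well plates, which had medians of 39940 to 51469 reads.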

Other observations

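Of 19 lipid handling genes 2 (10.5%, beside 3.64% of all genes measured) were called higher in 96-well microglia (*Abca1*, a cholesterol exporter, and *Plin2*, a lipid droplet coat protein) and 0 in 384-well microglia, and 0 were called lower in either format. Over the nuclei that were not set apart, the mean over the 30 interferon response genes ran from 0.597 to 25.6 RPKM with a median of 8.74 RPKM, and that over the 30 genes of disease-associated microglia from 1.59 to 109.7 RPKM with a median of 18.9 RPKM. Of the 9 oligodendrocyte precursor genes and the 18 lymphocyte genes none was called higher, of 15 monocyte and granulocyte genes 2 (96-well) and 0 (384-well) were, and of 17 endothelial and mural genes there were 1 (*Pecam1*) and 0.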
